A study of Homo sapiens with 16 samples.

Results

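The zinc finger genes of chromosome 19 expressed in U2OS cells are described here. They are the protein-coding genes of that chromosome in GENCODE release 29 whose names start with ZNF and a digit and whose mean over 16 RNA-seq libraries was at least 1 FPKM (fragments per kilobase of exon, scaled to library depth). Of 249 ZNF genes of this kind in the table, 97 reached this level, and they are called the members. They were thus chosen by their measured FPKM, over all groups alike. U2OS is a human osteosarcoma line. All cells received an siRNA, either against SETD2 (siSETD2) or a non-targeting one (siNT). For 4 h before collection at 48 h after transfection they were given 2 mM hydroxyurea (HU) with 2 µM VE-822, HU, VE-822, or no drug. These 8 groups have 2 libraries each, numbered R1 and R2. No label states whether both came from cultures of their own, so a p-value here sets a difference against library spread that may be purely technical. The whole line was measured in bulk, so fewer cells of a kind and less RNA per cell cannot be told apart.

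Most members belong to the KRAB zinc finger family. Their proteins bind DNA through tandem C2H2 fingers, and the KRAB box recruits TRIM28, which brings in SETDB1, the enzyme that writes the repressive histone mark H3K9me3, and heterochromatin protein HP1. The genes themselves lie in tandem arrays and are known for an unusual chromatin state: their bodies carry H3K36me3, the mark that SETD2 writes behind elongating polymerase, together with H3K9me3 over the exons that encode the fingers. ZNF274, itself a member, is known to bind these finger-coding exons and to recruit SETDB1 there. HU starves replication forks of deoxynucleotides, and VE-822 inhibits ATR, the kinase that responds to stalled forks. The comparisons below give the levels of these transcripts with SETD2 lowered and with each drug.

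The finger-coding exons repeat 1 short unit many times. In the coding sequence of the longest complete GENCODE transcript, members held between 1 finger (ZNF428) and 26 fingers (ZNF845), with a median of 11. A KRAB A box pattern was found in 71 members, with a median of 12 fingers, and not in 26, with a median of 9. The pattern misses diverged boxes, such as that of ZNF473. Neighbouring repeats of ZNF146, the most abundant member, are shown to make the unit visible. Each of these 3 has 84 coding bases, with the 2 cysteine and 2 histidine codons that hold the zinc ion in capitals, and a linker follows the last histidine (GENCODE transcript, 5′ to 3′).
ZNF146 finger 2: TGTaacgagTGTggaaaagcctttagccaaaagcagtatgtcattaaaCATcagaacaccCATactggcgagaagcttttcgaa
ZNF146 finger 3: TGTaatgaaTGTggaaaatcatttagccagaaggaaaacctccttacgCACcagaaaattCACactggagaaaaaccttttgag
ZNF146 finger 4: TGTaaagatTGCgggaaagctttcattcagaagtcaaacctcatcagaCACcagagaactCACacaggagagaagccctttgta
Fingers 2 and 3 of ZNF146 were identical at 71.4% of these bases, fingers 2 and 4 at 66.7%, and fingers 3 and 4 at 72.6%. Repeats between genes can be closer still. The longest identical coding stretch was 538 bases between ZNF417 and ZNF587, 331 bases between ZNF324 and ZNF324B, 222 bases between ZNF552 and ZNF587B, and 128 bases between ZNF780A and ZNF780B. In all, 23 members shared at least 60 identical coding bases with another member, and how the authors' counting split fragments of such stretches is not given in the sources used here, so their levels are uncertain. By position 51 members overlap a gene on the other strand, among them ZNF404, ZNF114 and ZNF582, and without strand such fragments cannot be told apart.

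Promoters are shown for 4 members that passed the test in VE-822 against untreated cells below. They were chosen as examples after their values were seen. RefSeq (GRCh38.p14) gave the 250 bases before the start of 87 of the 97 members. The ETS core CCGGAAG, searched on both strands, occurred in 32.2% of these members and in 8.52% of all RefSeq promoters. It was in 22.4% of 340 promoters of ZNF genes on other chromosomes, called the other ZNF genes here. Neither comparison set was filtered by expression or gene type, as the members were. The shares here and below thus compare unlike sets. The GC box GGGCGG was in 59.8% of members, 53.5% of the other ZNF genes and 42.6% of all promoters. The CCAAT box (letters CCAAT) was in 40.2% of members, 36.2% of the other ZNF genes and 32.0% of all promoters. These are matches of letters only, in windows whose median count of CpG was 17 in members, 18 in the other ZNF genes and 11 over all promoters. ZNF582 and ZNF283 fell and ZNF414 and ZNF776 rose with VE-822. The windows run 5′ to 3′ on the gene's strand, with matches in either orientation in capitals.
ZNF582 (chr19:56393535-56393784, minus strand): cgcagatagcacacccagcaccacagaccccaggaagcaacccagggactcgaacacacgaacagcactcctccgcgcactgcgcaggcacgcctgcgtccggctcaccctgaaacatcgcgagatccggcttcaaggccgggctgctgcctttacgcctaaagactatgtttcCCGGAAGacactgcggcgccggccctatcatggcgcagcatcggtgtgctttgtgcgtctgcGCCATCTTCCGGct
ZNF283 (chr19:43827071-43827320, plus strand): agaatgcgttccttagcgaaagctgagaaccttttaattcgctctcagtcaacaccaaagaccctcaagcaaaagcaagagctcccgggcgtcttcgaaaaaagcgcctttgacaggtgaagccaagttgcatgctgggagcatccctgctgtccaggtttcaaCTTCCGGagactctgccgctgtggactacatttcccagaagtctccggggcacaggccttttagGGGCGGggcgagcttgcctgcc
ZNF414 (chr19:8514168-8514417, minus strand): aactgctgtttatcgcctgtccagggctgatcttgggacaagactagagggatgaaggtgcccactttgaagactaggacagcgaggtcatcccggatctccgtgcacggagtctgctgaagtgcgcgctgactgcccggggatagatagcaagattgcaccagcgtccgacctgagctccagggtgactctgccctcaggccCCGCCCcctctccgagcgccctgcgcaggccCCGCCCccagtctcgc
ZNF776 (chr19:57746565-57746814, plus strand): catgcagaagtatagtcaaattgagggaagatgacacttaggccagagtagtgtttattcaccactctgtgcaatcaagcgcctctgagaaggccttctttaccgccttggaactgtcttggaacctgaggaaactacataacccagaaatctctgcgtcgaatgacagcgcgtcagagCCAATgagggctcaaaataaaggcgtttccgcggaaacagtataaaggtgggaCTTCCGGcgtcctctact
In ZNF582 the second ETS core, CTTCCGG, overlaps a match to the YY1 core AAGATGGC, which is read there as GCCATCTT. ZNF283 holds 1 ETS core and 1 GC box, ZNF414 holds 2 GC boxes, and ZNF776 holds 1 CCAAT box and 1 ETS core. The ETS core stands in windows of members that fell and of 1 that rose.

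Levels of the members were low beside those of all genes tested, coding or not. Their mean FPKM had a median of 1.96, against 5.51 over all 13088 genes tested, 50 members were under 2 FPKM and 12 reached 5 FPKM. ZNF146, which consists almost wholly of fingers, led with 27.0 FPKM. It was followed by ZNF114 (13.4 FPKM), ZNF428 (8.01 FPKM), ZNF581 (7.98 FPKM), ZNF574 (7.81 FPKM) and ZNF121 (7.49 FPKM). Just inside the threshold lay ZNF420 (1.01 FPKM), ZNF772 (1.01 FPKM) and ZNF569 (1.02 FPKM), and just outside it ZNF30 (0.989 FPKM), ZNF347 (0.986 FPKM) and ZNF440 (0.953 FPKM). All 97 members had fragments in every library, and 74 were at or above 1 FPKM in all 16. A member had 38 to 3422 fragments in a library, with a median of 274, so counting error alone was about 6.04% at the median and 16.2% at the lowest count.

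Position on the chromosome went with which genes were expressed. With a gap of at least 1 Mb between ZNF genes as the border, the 249 genes fell into 16 neighbourhoods, and 14 of them held members. The last one before the end of the long arm (no. 16, chr19:55476332-58481230) held 37 of its 59 genes as members, and no. 12 (chr19:43525497-45076588) held 14 of 24. By contrast, the 37 genes of no. 5 (chr19:19668796-24129961) included no member: their mean FPKM had a median of 0.00371, 25 were under 0.1 FPKM, and the highest, ZNF738, reached 0.485 FPKM. Since the threshold itself used these levels, the counts describe the choice of members and carry no test.

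Several of the most variable members differed widely between the libraries of 1 group. ZNF404, a KRAB protein gene with 14 fingers at chr19:43872363-43901385 on the minus strand, had 7.04 and 15.6 FPKM in R1 and R2 of untreated siSETD2 cells and 5.69 and 11.8 FPKM in those of untreated siNT cells. Outside VE-822 alone, in 6 groups, R2 was higher than R1 for ZNF404, with a mean difference R1 minus R2 of -0.91 on the log2(FPKM + 1) scale. ZNF554, ZNF114 and ZNF841 had the opposite pattern there, with mean differences R1 minus R2 of 1.09, 1.02 and 0.70. In ZNF554 the siSETD2 cells with HU and VE-822 had 4.87 and 1.10 FPKM in R1 and R2, against 2.54 and 1.06 FPKM in siNT cells. Over the members, R1 minus R2 correlated between these 6 groups at 0.511 to 0.890 (Pearson, 97 genes, 15 pairs of groups), and between 1 of them and a VE-822-alone group at -0.174 to 0.374. Tests are therefore given without and, where it changes a call, with a replicate block, a term for the number R1 or R2 in the 6 groups. The block takes the R1 to R2 gap of these groups out of the spread. The VE-822-alone libraries do not share that gap, so block p-values in comparisons with them may be too small.

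**Figure D1:**
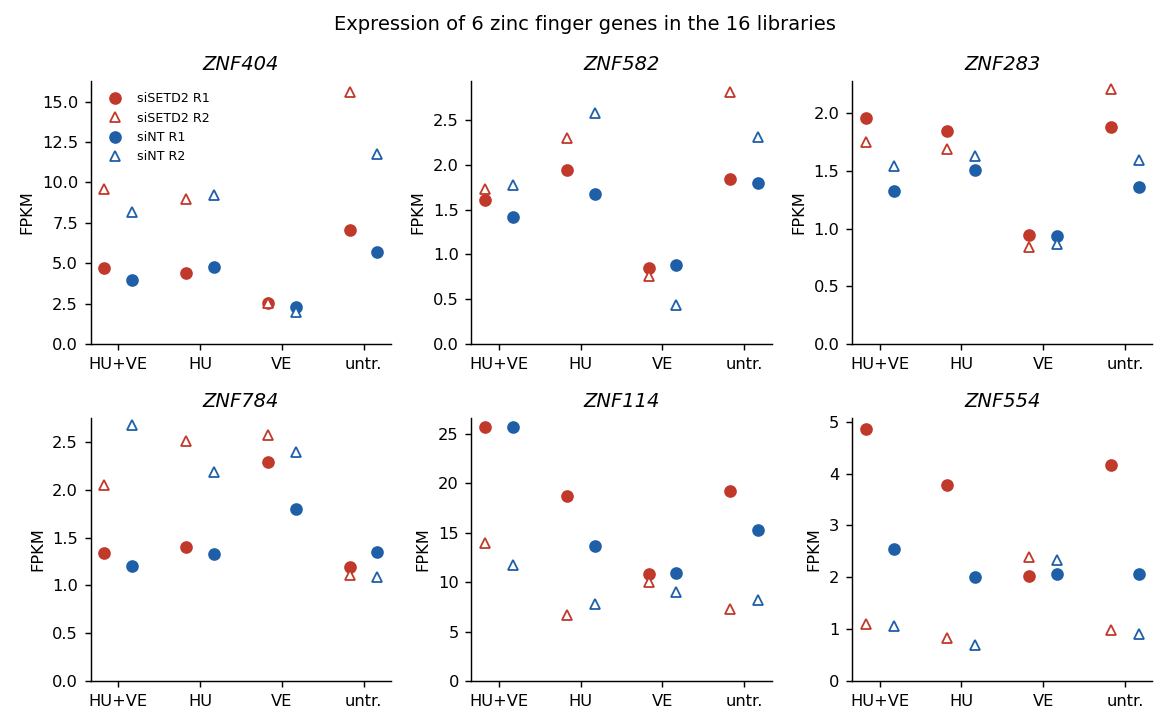
FPKM of 6 members in each library, with treatments along the x axis (HU+VE, HU with VE-822; VE, VE-822; untr., no drug), siSETD2 in red left of siNT in blue, R1 as filled circles and R2 as open triangles. ZNF404 and ZNF582 are lowest in the VE-822-alone libraries, and R1 and R2 of ZNF114 and ZNF554 lie far apart except with VE-822 alone.

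SETD2 siRNA lowered SETD2, and no member differed from siNT cells past the test. The SETD2 transcript had 2.01 to 4.62 FPKM (median 3.81) in the 8 siSETD2 libraries and 7.34 to 9.25 FPKM (median 8.11) in the 8 siNT libraries. Averaged over the 4 treatments, none of the 97 members passed the test (limma on log2(FPKM + 1), Benjamini-Hochberg adjusted p under 0.05), where 0.13% of all genes tested did. None passed with the replicate block, where 3.88% of all genes did, or with voom on recovered fragments, and 4 had an unadjusted p under 0.05 (9 with the block). Counts at an unadjusted p are given here and below without the share over all genes, so they are no result about the members. The members' log2 fold changes ran from -0.13 (ZNF584) to 0.29 (ZNF554) with a median of 0.02, against -0.01 over all genes. They were higher in siSETD2 cells for 55 members and lower for 42.

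The precision of this comparison bounds the size of a change on the log2(FPKM + 1) scale only. That scale understates fold changes of low genes, and 50 members had a mean under 2 FPKM, so bounds on FPKM itself are wider. For 93 of the 97 members the 95% interval of the log2 fold change lay within 0.5 of 0, and for all 97 within 1. The median half-width was 0.16. ZNF274, the factor that brings SETDB1 to these genes, is an example with a narrow interval. It had 4.76 and 4.25 FPKM in R1 and R2 of untreated siSETD2 cells, against 4.58 and 4.08 FPKM in untreated siNT cells, and its average log2 fold change was 0.11 (95% interval -0.04 to 0.25). ZNF146 had 32.6 and 26.0 FPKM in untreated siSETD2 cells and 27.8 and 28.8 FPKM in untreated siNT cells. Its average was 0.01 (-0.15 to 0.16).

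The largest single differences with siSETD2 did not hold up against the spread of libraries. ZNF554 had the highest value, but its excess stood in R1, where untreated siSETD2 cells had 4.16 FPKM and untreated siNT cells 2.06 FPKM. In R2 it had 0.973 FPKM in siSETD2 cells and 0.905 FPKM in siNT cells. Its adjusted p was 0.824 with limma. ZNF579 was steadier between numbers: untreated siSETD2 cells had 7.85 and 8.86 FPKM and untreated siNT cells 6.93 and 5.86 FPKM, and the average log2 fold change of 0.23 (SE 0.102) had a limma adjusted p of 0.476. With siSETD2 against siNT, groups did not overlap in the same direction in all 4 treatments for 0 members, where 0.604% of all genes lay above and 1.24% below in that way.

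The members' median with siSETD2 lay above that of all genes in R1 and near it in R2. In R1 their median log2 fold change of siSETD2 against siNT was 0.06, against -0.00429 over all genes. In R2 it was -0.02, against -0.01 over all genes. The knockdown also differed by number, with SETD2 at 2.01 FPKM in R1 and 4.17 FPKM in R2 of untreated siSETD2 cells, and 2.22 and 4.13 FPKM with HU. The part of the knockdown depth in the members' values was not tested. Of the 97, 33 members were higher in siSETD2 cells in both numbers, 23 were lower in both and 41 went opposite ways. Scaling decided the count of directions: 86 members were higher with TPM rescaling (member median 0.10, all-gene median 0.07), 71 with each library scaled to its own total and 68 with voom. Members with more than 11 fingers had a median of -0.01, with 21 of 48 higher, and the 49 with 11 or fewer had a median of 0.05, with 34 higher. Across the 97 members, fingers and fold change had a Spearman rho of -0.306, a description over genes that share the same libraries.

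Within 1 treatment no member passed the test either, nor did any of the 13088 genes tested, SETD2 among them. This held in untreated cells, in HU, in VE-822 and in HU with VE-822 (0% called in each). As the targeted gene itself did not pass, these tests say little about the members. At an unadjusted p under 0.05 there were 2 members in untreated cells, 0 in HU, 1 in VE-822 and 0 in HU with VE-822. With the replicate block 0 members were called, where 0.00764% of all genes were in untreated cells and 0.0458% in VE-822. The members' medians of siSETD2 against siNT were 0.04 untreated, 0.04 in HU, -0.03 in VE-822 and 0.05 in HU with VE-822. In HU with VE-822, TPM rescaling moved the median of all genes to 0.14, against 0.01 as deposited, and the members' median was then 0.18.

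**Figure D2:**
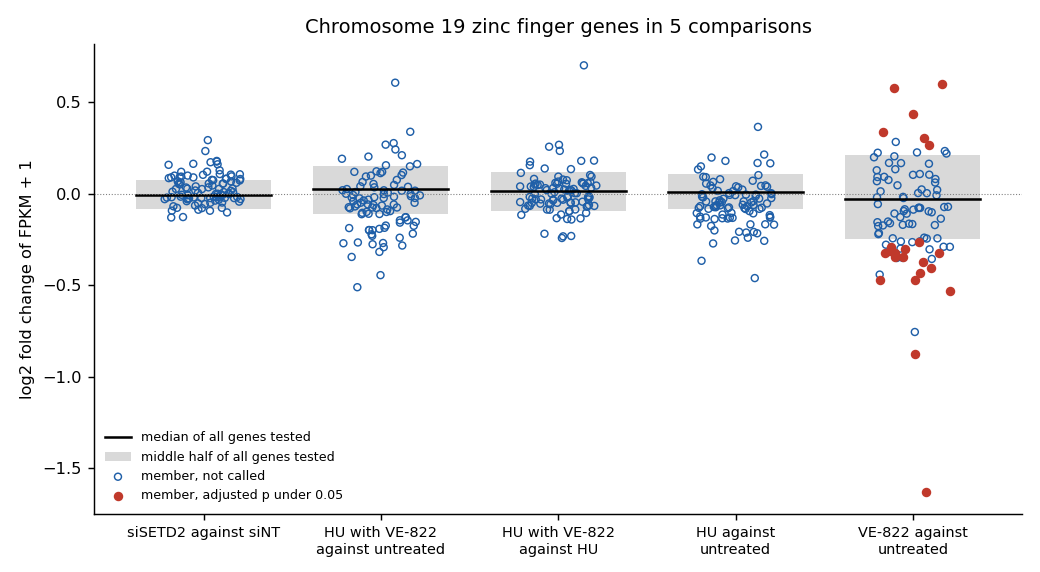
Log2 fold change of FPKM + 1 (y axis) of the 97 members in 5 comparisons (x axis), averaged over the other factor. Points are members, filled red where the limma adjusted p is under 0.05, the line is the median of all 13088 genes tested and the grey box holds their middle 50 percent. Called members appear in VE-822 against untreated, at 6 higher and 17 lower.

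With HU alone most members had slightly lower values, none past the test. Averaged over both siRNAs, 70 of 97 members were lower and 27 higher in HU than in untreated cells, with a median log2 fold change of -0.06, against 0.01 over all genes. By number, 39 members were lower in both R1 and R2, 13 were higher in both and 45 went opposite ways. None passed the limma test (0.107% of all genes did) or voom, and 6 had an unadjusted p under 0.05. With TPM rescaling 60 were lower, and with each library's own total 72. All 14 members of neighbourhood 12, on the long arm around ZNF404, ZNF224 and ZNF45, were lower, as they were under the other 4 scales tried (TPM, own total, voom and a pseudocount of 0.1), with a median of -0.13. Of the other large neighbourhoods, no. 16 had 23 of 37 members lower (18 with TPM rescaling), no. 15 had 8 of 13 (6 with TPM), no. 2 had 6 of 9 (6 with TPM) and no. 9 had 6 of 7 (5 with TPM). HU libraries lay wholly below untreated ones in both siRNAs for 7 members (7.22%, where 3.76% of all genes did) and wholly above for 2 (2.06%, where 4.26% did). As neighbours share libraries and may share stretches of sequence, they are not independent.

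ZNF404 had the most negative value with HU. It had 4.43 and 8.95 FPKM in R1 and R2 of siSETD2 cells and 4.76 and 9.20 FPKM in siNT cells with HU, against 7.04 and 15.6 FPKM in untreated siSETD2 cells and 5.69 and 11.8 FPKM in untreated siNT cells. Each number was lower within each siRNA, while the groups overlap, since R1 and R2 lie far apart. The log2 fold change of -0.46 had a limma adjusted p of 0.859 (SE 0.342), and with the replicate block 0.00536 (SE 0.0602), which made it the 1 member called among 1.6% of all genes. ZNF121 followed at -0.37 (limma adjusted p = 0.275). ZNF224, known as a repressor of the aldolase A gene, was at -0.27, with -0.19 in siSETD2 cells and -0.35 in siNT cells. On the higher side stood ZNF784 at 0.37 and ZNF414 at 0.21, neither of them called, with adjusted p-values of 0.728 and 0.904 (limma).

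VE-822 alone gave the widest fold changes of the members among the 5 averaged comparisons. HU, VE-822 and both drugs are each set against the same untreated libraries. Averaged over both siRNAs, 6 members rose and 17 fell against untreated cells (limma, adjusted p under 0.05), which is 23.7% of members where 24.7% of all genes were called. By direction, 6.19% of members rose, where 11.4% of all genes did, and 17.5% fell, where 13.4% of all genes did. The members' median log2 fold change was -0.11, against -0.03 over all genes, 0.02 over 182 ZNF genes of other chromosomes and -0.04 over 647 other protein-coding genes of chromosome 19. Of the 182 ZNF genes elsewhere 29 rose and 21 fell. No test was made of the members as a set.

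The 4 VE-822-alone libraries stood apart from the other 12. On the first principal component of the members (36.9% of their variance) they lay at 1.46 to 2.03. Of the remaining libraries, those numbered R2 lay at -0.36 to 0.41 and those numbered R1 at -1.97 to -0.62. What sets these libraries apart and the effect of VE-822 cannot be told apart. RUNX2, an osteoblast lineage factor, had 5.85 to 6.91 FPKM in them, against 0.833 to 1.91 FPKM in the others. The 10 mesenchymal and osteoblast markers summed to 338 to 387 FPKM in them, against 285 to 503 FPKM in the others, and 7 epithelial markers to 59.3 to 69.0 FPKM against 72.4 to 121 FPKM. The 8 blood markers summed to 2.71 to 3.40 FPKM, against 1.03 to 2.27 FPKM, with PTPRC, the defining one, at most 0.102 FPKM. The 4 endothelial markers summed to 0.308 to 0.389 FPKM, against 0.299 to 0.700 FPKM, and the 3 neural ones to 1.68 to 2.62 FPKM, against 0.774 to 2.12 FPKM. The part of these markers in the members' values was not tested.

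ZNF404 fell furthest with VE-822. It had 2.56 and 2.56 FPKM in siSETD2 cells and 2.27 and 1.97 FPKM in siNT cells, against 7.04 and 15.6 FPKM in untreated siSETD2 cells and 5.69 and 11.8 FPKM in untreated siNT cells, in R1 and R2. Every VE-822 library lay below every untreated one, and the R1 to R2 gap of the other groups was absent. The log2 fold change was -1.63 (SE 0.342, limma adjusted p = 0.00697), and -1.89 to -1.37 when each library in turn was left out. ZNF582, whose promoter is known to be methylated in several carcinomas, had 0.852 and 0.761 FPKM in siSETD2 cells and 0.883 and 0.437 FPKM in siNT cells, against 1.84 and 2.81 FPKM in untreated siSETD2 cells and 1.80 and 2.31 FPKM in untreated siNT cells. Its groups did not overlap and the log2 fold change was -0.88 (SE 0.137, limma adjusted p = 0.00157). Its lowest library had 38 fragments, the fewest of any member.

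ZNF283, which lies near ZNF404, had 0.950 and 0.845 FPKM in siSETD2 cells and 0.938 and 0.869 FPKM in siNT cells, against 1.88 and 2.21 FPKM in untreated siSETD2 cells and 1.36 and 1.60 FPKM in untreated siNT cells. All 4 VE-822 values lay below all 4 untreated ones, with a log2 fold change of -0.53 (SE 0.0803, limma adjusted p = 0.00129). ZNF256 fell by 0.41 on the log2 scale (adjusted p = 0.00454) and ZNF526, which has no KRAB A pattern, by 0.34 (adjusted p = 0.00804). These 5 (ZNF404, ZNF582, ZNF283, ZNF256 and ZNF526) stayed called when any 1 library was left out and under all 7 other settings. The other 18 calls each failed when at least 1 library was left out. The number called ran from 5 without siSETD2 VE-822 R2 to 25, and it was 7 without untreated siNT R1, 7 without siNT VE-822 R2, 7 without siSETD2 VE-822 R1, 11 without siNT VE-822 R1, 11 without untreated siSETD2 R1 and 15 without untreated siNT R2.

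The remaining members that fell did so by less. ZNF544, ZNF700 and ZNF480, KRAB genes of 3 different neighbourhoods, fell by 0.47, 0.47 and 0.44 on the log2 scale. ZNF274 had 3.42 and 3.82 FPKM in siSETD2 cells and 2.95 and 3.16 FPKM in siNT cells, against 4.76 and 4.25 FPKM in untreated siSETD2 cells and 4.58 and 4.08 FPKM in untreated siNT cells. It fell by 0.32 (limma adjusted p = 0.0314), with an adjusted p of 0.0227 to 0.106 when each library was left out, and it was not called without filter on low values or with TPM rescaling. ZNF222, ZNF567, ZNF529, ZNF551, ZNF77, ZNF780B, ZNF550 and ZNF569 fell by between 0.26 and 0.37. ZNF841 had 2.29 and 1.87 FPKM in siSETD2 cells and 2.26 and 2.08 FPKM in siNT cells, against 4.80 and 2.94 FPKM in untreated siSETD2 cells and 6.03 and 3.79 FPKM in untreated siNT cells. Its log2 fold change of -0.76 was not called by limma (adjusted p = 0.0710) but was with the replicate block (0.000153). ZNF146 was also called with the block alone, at -0.29 (0.0586 without it, 0.0286 with it). The block, whose p-values may be too small here, raised the calls to 9 higher and 32 lower. That was 42.3% of members, where 44.9% of all genes were called (20.7% higher and 24.2% lower).

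Members that rose with VE-822 were fewer. ZNF414 had 4.11 and 5.05 FPKM in siSETD2 cells and 3.59 and 4.32 FPKM in siNT cells, against 3.18 and 2.07 FPKM in untreated siSETD2 cells and 2.31 and 2.38 FPKM in untreated siNT cells. Its log2 fold change was 0.60 (SE 0.178, limma adjusted p = 0.0324). ZNF784 had 2.29 and 2.58 FPKM in siSETD2 cells and 1.80 and 2.40 FPKM in siNT cells, against 1.19 and 1.11 FPKM in untreated siSETD2 cells and 1.35 and 1.09 FPKM in untreated siNT cells, a log2 fold change of 0.58 (adjusted p = 0.0433). In both, every VE-822 library lay above every untreated one. ZNF776 rose by 0.44, ZNF558, a KRAB gene known to repress the mitophagy gene SPATA18, by 0.34, ZNF507 by 0.30 and ZNF772 by 0.27. None of the 6 was called without untreated siNT R1, or without any 1 of the VE-822-alone libraries. ZNF414, ZNF784 and ZNF507 have no KRAB A pattern: of the 26 such members 3 rose and 1 fell, and of the 71 with the pattern 3 rose and 16 fell. Over all genes tested, 11.4% rose and 13.4% fell.

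Neighbours moved alike in part. All 7 members of neighbourhood 9, from ZNF146 to ZNF569 (chr19:36182060-37817300), were lower with VE-822 under each of the 5 scales, with a median log2 fold change of -0.26 and 3 of them called. In neighbourhood 12, 12 of 14 members were lower (13 with TPM, own-total or voom scaling) and 3 were called. Over all genes tested, 11.4% were called higher and 13.4% lower. In neighbourhood 16, 21 of 37 were lower and 16 higher (23 and 14 with those 3 scalings), with 6 called lower and 3 higher, so that the same array held members of both directions. In VE-822 against untreated, groups did not overlap in both siRNAs for 27 members that were lower, where 21.6% of all genes were, which is 27.8% of members, and for 11 that were higher, 11.3% of members where 18.1% of all genes were.

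**Figure D3:**
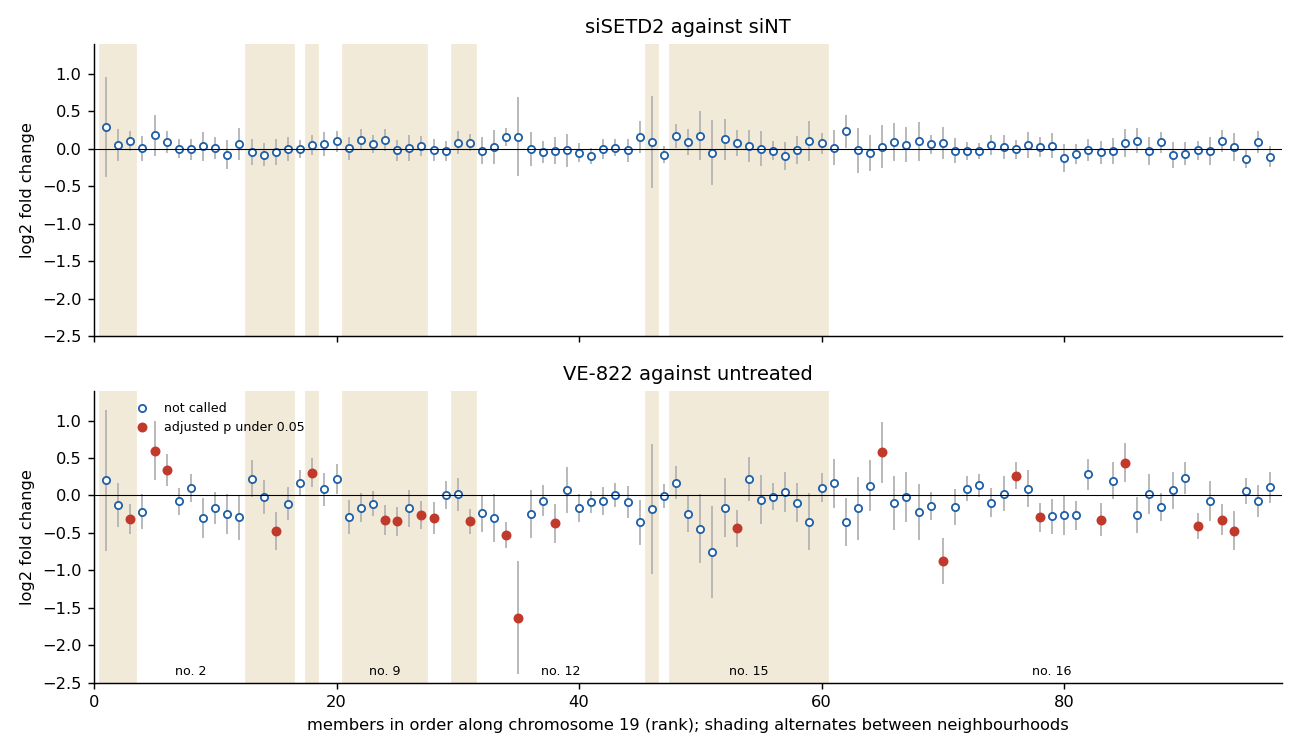
Log2 fold change of FPKM + 1 of each member in order along chromosome 19 (x axis, rank), with 95% intervals as grey lines, for siSETD2 against siNT (top) and VE-822 against untreated (bottom). Shading alternates between neighbourhoods, and those with at least 5 members are numbered. The top values stay within -0.13 and 0.29, and the bottom ones reach -1.63 at ZNF404.

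With HU present, no member passed the test for added VE-822. HU with VE-822 against HU gave a median log2 fold change of 0.00 over the members and 0.01 over all genes, and no member passed the limma test (0.00764% of all genes did) or voom, with 2 at an unadjusted p under 0.05. ZNF114 had the highest value: it had 25.7 and 14.0 FPKM in R1 and R2 of siSETD2 cells and 25.7 and 11.7 FPKM in siNT cells with both drugs, against 18.7 and 6.63 FPKM in siSETD2 cells and 13.7 and 7.78 FPKM in siNT cells with HU. It was higher within each number and siRNA, while R1 of HU overlaps R2 of both drugs. The log2 fold change of 0.70 had an adjusted p of 0.715 by limma and 0.0220 with the replicate block, the 1 member called then, where 1.31% of all genes were.

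Against untreated cells, 64 members had lower and 33 higher values with HU and VE-822, with a median log2 fold change of -0.05, against 0.02 over all genes. By number, 41 members were lower in both R1 and R2, 15 were higher in both and 41 went opposite ways. None passed the limma test (0.0382% of all genes did) or voom. An unadjusted p under 0.05 was found for 14, a count given without the share over all genes. With TPM rescaling 51 were lower and 46 higher. With the replicate block 8 members were called, 8.25% where 7.3% of all genes were (4.07% higher and 3.23% lower). Libraries with both drugs lay wholly below untreated ones in both siRNAs for 12 members (12.4%, where 4.81% of all genes did) and wholly above for 1 (1.03%, where 6.74% did). ZNF114 (0.61, adjusted p = 0.0138 with the block) and ZNF584 (0.27, 0.0244) rose. ZNF404 (-0.51, 0.00265), ZNF222, ZNF780B, ZNF577, ZNF700 and ZNF544 fell, the last 5 by 0.27 to 0.44.

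The response to VE-822 was set against the same response in HU, a comparison chosen after the data were seen. The difference (VE-822 against untreated minus HU with VE-822 against HU) was called by limma for ZNF283 at -0.51 (SE 0.114, adjusted p = 0.0199) and ZNF256 at -0.47 (SE 0.111, adjusted p = 0.0257), 2.06% of members where 9.91% of all genes were called. ZNF256 had 2.14 and 1.99 FPKM in R1 and R2 of siSETD2 cells and 2.72 and 2.32 FPKM in siNT cells with VE-822 alone. With both drugs it had 3.75 and 3.61 FPKM in siSETD2 cells and 3.20 and 3.80 FPKM in siNT cells. Neither call held without siNT VE-822 R2, siSETD2 VE-822 R2, siSETD2 HU R2 or siSETD2 HU with VE-822 R1, where 0 members were called. ZNF256 was also lost without untreated siNT R1 or R2, siNT HU R2, siNT HU with VE-822 R2 or siSETD2 VE-822 R1, which left 1 call, and there were 4 calls without untreated siSETD2 R1 and 10 without untreated siSETD2 R2. With TPM rescaling ZNF283 stayed called and ZNF256 did not. With the replicate block, whose p-values may be too small here, 18 members differed, 18.6% where 33.1% of all genes did. ZNF404 was among them, at -1.58 (0.0615 without the block, 2.18e-06 with it): with both drugs it had 4.73 and 9.57 FPKM in siSETD2 cells and 3.99 and 8.15 FPKM in siNT cells, above all 4 VE-822-alone values.

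**Figure D4:**
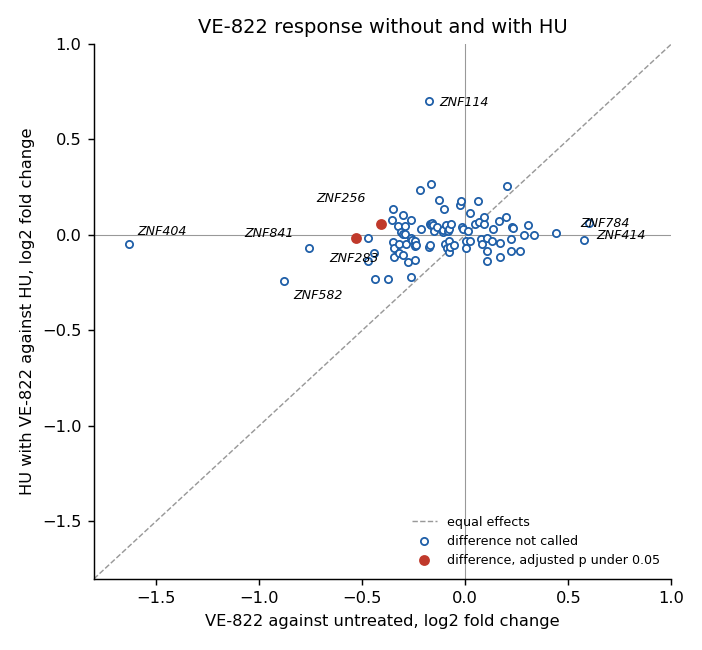
Log2 fold change of each member in VE-822 against untreated (x axis) and in HU with VE-822 against HU (y axis), with points filled red where the difference has a limma adjusted p under 0.05. Most points spread along the x axis and stay near 0 on the y axis, with ZNF404 at -1.63 and -0.05.

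The siRNA did not change a drug response detectably in any member. The difference of the HU response, of the VE-822 response and of the response to VE-822 added to HU, each siSETD2 minus siNT, was called for 0 members and 0% of all genes by limma, without and with the replicate block, and for 0 members by voom. At an unadjusted p under 0.05 there were 1, 1 and 0 members in these 3 comparisons. The medians over the members were 0.02, -0.08 and -0.01. These differences are the least precise: the 95% interval lay within 0.5 of 0 for 27, 19 and 34 members, and within 1 for 90, 85 and 90. Within 1 siRNA, 5 members were called lower with VE-822 in siSETD2 cells (5.15% of members, where 5.16% of all genes fell). In siNT cells 1 was (1.03%, where 2.88% of all genes fell), and the test of the difference above did not separate the siRNAs.

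The partners of the KRAB family were followed in lists of genes. TRIM28, the platform of the repressor complex, had 89.5 to 138 FPKM over the libraries and was not called in any averaged comparison. With VE-822 against untreated, 3 of 10 co-repressors tested rose and none fell by limma, where 24.7% of all genes were called (11.4% higher and 13.4% lower). They were SETDB1 at 0.37 (adjusted p = 0.0185), its cofactor ATF7IP at 0.50 (0.00193) and CHD4, the ATPase of the NuRD complex, at 0.35 (0.0350). ATF7IP had 2.56 and 2.39 FPKM in R1 and R2 of siSETD2 cells and 3.21 and 2.99 FPKM in siNT cells with VE-822, against 1.36 and 1.58 FPKM in untreated siSETD2 cells and 1.82 and 1.93 FPKM in untreated siNT cells, with no overlap. Of 5 HUSH and MORC genes, PPHLN1, a subunit of HUSH, fell (-0.28, 0.0256). Of 8 genes for ATRX, DAXX and H3.3 deposition, DAXX, a chaperone of histone H3.3, fell (-0.48, 0.00288).

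Among the enzymes of both marks, some were called with VE-822, where 24.7% of all genes were. The counts are therefore no result about these enzymes. Of 6 H3K9 methyltransferases tested 2 rose, SETDB1 again and PRDM2 (0.23, 0.0410). Of 9 demethylases of H3K9 or H3K36, KDM4A, which acts on both marks, rose (0.30, 0.0349) and KDM1A fell (-0.32, 0.0351). Of 7 genes listed as H3K36 methyltransferases, SETD3, now known mainly as an actin histidine methyltransferase, fell (-0.49, 0.00334). With siSETD2 against siNT, SETD2 itself was the 1 gene called by limma over these lists (-1.09, 0.0169). With the replicate block, where 3.88% of all genes were called, CBX1, which encodes an HP1 protein (-0.24, 0.0485), and ATRX (-0.21, 0.0420) fell as well. In HU against untreated, 0 of these genes were called by limma, and in HU with VE-822 against HU and against untreated 0.

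The line itself was checked by its markers. VIM, SPARC and FN1 of the mesenchymal list were expressed, while COL1A2 and SP7, both of the osteoblast lineage, stayed under 0.1 FPKM everywhere. CDH1, the defining epithelial marker, stayed at or below 0.189 FPKM. Other markers of the epithelial list were expressed, since its 7 genes summed to 59.3 to 69.0 FPKM with VE-822 alone. They summed to 72.4 to 121 FPKM in the other libraries. The fragments recovered from the FPKM came to 22310806 to 31101932 a library.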

How the data were processed

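RNA-seq was made from 16 U2OS libraries. The submitters' processing notes list FastQC, STAR 2.6.1d, featureCounts 1.5.0-p3, DESeq2 1.26.0 and hg38, without roles. The authors deposited 1 table of FPKM per gene and library, and no source used here gives the strand, annotation release or multi-mapping settings. Gene types, positions and coding sequences were taken from GENCODE 29 by gene ID.

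Groups came from the labels. The limma-trend method (package limma 3.58.1, R 4.3.3) was fitted to log2(FPKM + 1) over 8 group means, for the 13088 genes whose mean FPKM reached 1, with Benjamini-Hochberg adjustment over all of them. A fold change on this scale understates that of low genes. Multiplying by exon length returned whole fragments for 100% of values (within 0.01), 22310806 to 31101932 a library. The count model limma-voom on these fragments called 5 members higher and 19 lower with VE-822, counts given without the share over all genes. The deviations of R1 and R2 correlated at 0.363 to 0.746 over all genes for each of 15 pairs among the 6 groups without VE-822-alone libraries, and at -0.05 to 0.295 where 1 of the pair was VE-822 alone, so the replicate block was set to 0 in those 4 libraries. Alternatives were a pseudocount of 0.1, no filter, TPM rescaling, own-total scaling, voom, 2 forms of the block, leaving out the VE-822-alone libraries and each library in turn.

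The named genes are the 10 most abundant members, the 3 on either side of the threshold, the 5 highest and 5 lowest fold changes of each of 5 averaged comparisons, called members (up to 15 a comparison), members with a known role and called genes of the lists; others were chosen after their values were seen. Members and lists were chosen with earlier results of these data known. The scripts were tested on simulated data.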

Additional observations from a re-analysis of the deposited data

Results flagged for a closer look

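The response of ZNF283 to VE-822 without HU minus that in HU was -0.51, and that of ZNF256 was -0.47, both called by limma (Benjamini-Hochberg adjusted p = 0.0199 and 0.0257). These are 2.06% of members, where 9.91% of all genes were called. As given above, neither call held when certain single libraries were left out.

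In the other cases the libraries moved one way under 1 condition and the opposite way under another, without a call by limma. For ZNF428, siSETD2 minus siNT in untreated cells minus that in VE-822 was 0.51 (limma adjusted p = 0.9999). For ZNF772, siSETD2 minus siNT in untreated cells minus that in HU was -0.25 (limma adjusted p = 0.99998). For ZNF416, siSETD2 minus siNT in HU minus that in HU with VE-822 was -0.47 (limma adjusted p = 0.99998). These 3 belong to the differences between siRNAs, where 0 members were called. The response of ZNF772 to VE-822 without HU minus that in HU was 0.35, with a limma adjusted p of 0.0744, and 0.0283 with the replicate block. Block p-values may be too small here, and 33.1% of all genes were called with the block. For ZNF772, siSETD2 minus siNT in untreated cells minus that in HU with VE-822 was -0.25, and for ZNF569 the same difference in HU minus that in VE-822 was 0.30. These last 2 differences were not tested. Each group has 2 libraries, and ZNF416 and ZNF569 are among the members with few fragments, at 40 and 81 in their lowest library.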

How the results depend on the processing

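Of the summary results, 566 recomputed values stayed within the stated bounds of the main ones and 50 moved, and of values of single named members 1656 kept direction and side of the threshold, 53 passed it newly, 103 no longer passed and 2 changed sign. The members' median of siSETD2 against siNT moved to 0.10 with TPM rescaling and 0.0715 with voom averaged over treatments, to 0.10 and 0.13 untreated, to 0.12 and 0.12 in HU, and to 0.18 with TPM in HU with VE-822. For VE-822 against untreated, 14 members were called with no filter on low values, 15 with TPM, 35 with the replicate block over all 8 groups and 41 with it in 6 groups, and the median moved to -0.19 with TPM and -0.19 with voom. The replicate block in 6 groups gave 1 call in HU against untreated, 1 in HU with VE-822 against HU and 8 in HU with VE-822 against untreated, where the block over 8 groups gave 1; it changed no other call count from 0. With voom the median difference between siRNAs was -0.15 for the VE-822 response and -0.0744 for VE-822 added to HU. For the VE-822 response without HU minus with HU, the median was -0.18 with a pseudocount of 0.1, -0.23 with TPM and -0.24 with voom, and the calls were 3 with TPM (ZNF283 kept, ZNF256 lost), 4 with own-total scaling, 4 with voom, 13 with the block over 8 groups and 18 with it in 6. Causes of these moves were not tested. With the block in 6 groups, 44.9% of all genes were called for VE-822 against untreated. For its response without minus with HU, 33.1% were. Member counts given here without a share over all genes are no result about the members. Leaving out each library in turn gave 5 to 25 members called with VE-822, 0 to 10 for its response without minus with HU and 0 to 0 elsewhere. The medians then ran from 0.00163 to 0.0356 for siSETD2 averaged, -0.0217 to 0.0743 untreated, 0.00892 to 0.0873 in HU, -0.0591 to -0.00325 in VE-822 and -0.0329 to 0.0822 in HU with VE-822. They ran from -0.08 to -0.02 for HU, -0.13 to -0.08 for VE-822, -0.03 to 0.04 for HU with VE-822 against HU and -0.08 to -0.00502 against untreated. The differences between siRNAs ran from -0.0189 to 0.0710 for HU, -0.11 to -0.0297 for VE-822 and -0.0387 to 0.0358 for VE-822 added to HU, and VE-822 without minus with HU from -0.16 to -0.10. ZNF554 in HU with VE-822 against HU changed sign, to -0.09 without siSETD2 HU R2 and -0.11 without siSETD2 HU with VE-822 R1, and ran up to 0.63 without siSETD2 HU with VE-822 R2. A group left with 1 library is assumed to vary like the others. Depth limits low members most, with a counting error of 16.2% at 38 fragments.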
